A study of Mus musculus with 6 samples.

Results

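The genes described here are 42 genes of DNA replication and of the passage from G1 into S phase, measured in Neuro2a cells after RNA interference against the transcription factors USF1 and USF2. They were listed by their function in licensing, helicase, polymerases, nucleotide supply and related steps, at a time when earlier results of these data were known. A gene was taken where the array's annotation gave a transcript cluster, the array's unit for a gene, exactly 1 symbol. All 42 listed genes were found in this way, of 16583 genes tested in all. Pcna and Tk1 had 2 clusters each, which were averaged, and the other members had 1. Neuro2a is a mouse neuroblastoma line that divides in culture and serves as a model of neuronal cells. In 3 samples the cells had received an empty vector, and in 3 samples vectors of the pcDNA6.2-GW/EmGFP-miR system that express microRNA-type RNA interference against USF1 or USF2, introduced with Lipofectamine 2000. How the empty vector was introduced is not described. Each sample was hybridised to 1 Affymetrix Mouse Gene 1.0 ST array. The labels give no time after transfection and describe no selection of transfected cells, so untransfected cells may have contributed RNA to every sample. Arrays of a group are called biological replicates with no word on separate cultures, and the p-values here reflect only how far these samples varied, possibly for technical reasons.

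Before S phase, the origin recognition complex, CDC6 and CDT1 load the MCM2-7 ring onto origins of replication. The ring becomes an active helicase when CDC45 and the GINS complex join it, and DNA polymerases then copy both strands behind the sliding clamp PCNA, which the RFC complex loads. E2F transcription factors and cyclin E drive transcription of most of these genes at the G1/S boundary. In dividing cultures the mRNA of many of these genes can therefore vary with the share of cells in late G1 and S phase. USF1 and USF2 bind the E-box CACGTG, the sequence that MYC and its relatives also bind.

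The deposited values are log2 signals relative to the median of the same transcript cluster over the 6 arrays, so they compare arrays and hold no level of a gene. A change is the mean of the knockdown arrays minus the mean of the empty vector arrays on this scale. Both targets were lower with knockdown. Usf1 lay at 0.18, 0.32 and 0.43 on the empty vector arrays and at -0.28, -0.18 and -0.26 on the knockdown arrays, a change of -0.55 ± 0.07 (SE). Usf2 had a change of -0.38 ± 0.06 (SE). For both targets the 2 groups did not overlap, and neither passed over all genes (adjusted p = 0.320 and 0.348 in limma, the linear model fitted across all genes). The number of arrays limits the precision, and the median SE of a member's change was 0.049. Knockdown array 2 stood apart, with a standard deviation over all clusters of 0.159 against 0.0531 to 0.0780 on the others. The rounding of the values put 9975 clusters into a brighter class, with log2 signals of 8 to 16 ahead of the centring, and 12896 into a dimmer class, with 4 to 8, and left 20 without a class. On knockdown array 2 the median of the dimmer class was 0.071 and that of the brighter class -0.028. Of the members, 41 of 42 were in the brighter class, Orc1 being the exception. Of the neuronal and neuroblastoma markers 10 of 14 measured were in the brighter class, and of the markers of fibroblasts, glia, macrophages and endothelium 1 of 20, the receptor Kdr.

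Promoter sequences of these genes were searched for short motifs. RefSeq windows of assembly GRCm38.p6, from 250 bases before to 50 bases after a gene's start, were matched for 34 members. Mcm4, Gins1, Gins2, Gins4, Prim2, Pole, Rfc2 and Ccne2 had no entry. The E2F site was searched as TTTCCCGC, TTTGGCGC, TTTGCCGC or TTTCGCGC on both strands, where overlapping matches on opposite strands count once per gene. It was found in 14 of the 34 members (41.2%), against 3.95% of the 13071 genes tested that had a window and 1 of 28 genes of G2/M and mitosis (3.57%). Other replication and G1/S genes held it in 19 of 66 cases (28.8%). The first 5 sequences below carry it, with the match in capitals, on the strand of the gene and ending before the start.
Orc1: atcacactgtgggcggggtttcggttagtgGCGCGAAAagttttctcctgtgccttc
Mcm6: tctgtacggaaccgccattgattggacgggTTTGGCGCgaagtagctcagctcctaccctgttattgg
Mcm7: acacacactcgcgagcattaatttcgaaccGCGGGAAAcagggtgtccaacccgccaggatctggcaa
Cdc6: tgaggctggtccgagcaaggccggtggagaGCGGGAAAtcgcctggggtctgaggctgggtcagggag
Pola1: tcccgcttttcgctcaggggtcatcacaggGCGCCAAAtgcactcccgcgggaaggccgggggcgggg
These lie at chr4:108579397-108579453 (plus strand), chr1:128359715-128359782 (minus), chr5:138172011-138172078 (minus), chr11:98907983-98908050 (plus) and chrX:93632256-93632323 (minus).

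The E-box CACGTG, the sequence that USF binds, was found in 6 of the 34 members (17.6%), against 10.6% of all genes with a window. Other replication and G1/S genes held it in 12 of 66 cases (18.2%), and genes of G2/M and mitosis in 3 of 28 (10.7%). The 6 members are Tyms, Rpa1, Rfc1, Fen1, Chaf1a and Lig1, where the match of Lig1 begins at base 37 after its start. The other 5 are shown because they hold the letters that the knocked down factors bind, with the E-box in capitals.
Tyms: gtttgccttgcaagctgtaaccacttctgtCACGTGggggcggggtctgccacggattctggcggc
Rpa1: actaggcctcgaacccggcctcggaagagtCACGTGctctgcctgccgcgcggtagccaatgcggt
Rfc1: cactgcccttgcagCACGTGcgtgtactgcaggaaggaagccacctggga
Fen1: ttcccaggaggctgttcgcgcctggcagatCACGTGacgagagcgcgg
Chaf1a: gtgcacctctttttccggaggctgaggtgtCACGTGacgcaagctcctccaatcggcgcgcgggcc
Their positions are chr5:30073651-30073716 (minus), chr11:75348416-75348481 (minus), chr5:65335840-65335889 (minus), chr19:10203922-10203969 (minus) and chr17:56040287-56040352 (plus). A match is a string of letters and not a measured binding site. Sites with other letters or outside the window were not searched. A CCAAT box, searched as CCAAT on both strands, was in 22 of the 34 (64.7%) and in 41.6% of all genes with a window. It was in 71.4% of the G2/M and mitosis genes, more than in the members, and in 50% of the other replication genes.

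**Figure D1:**
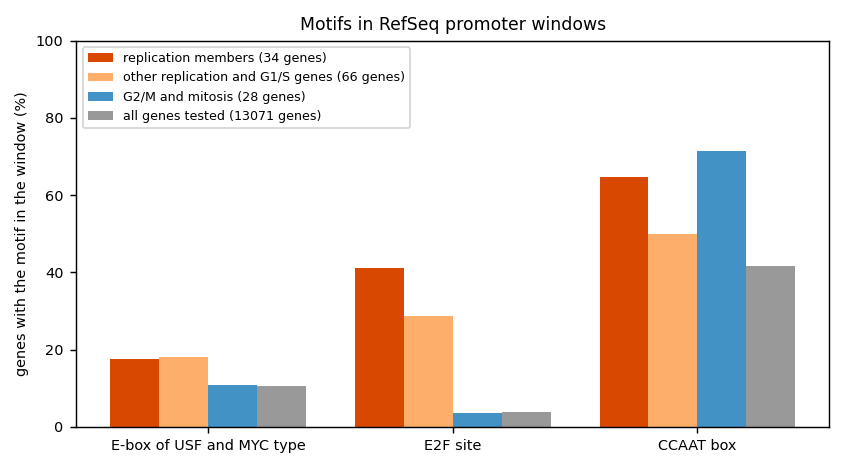
Share of genes (%, vertical axis) whose RefSeq promoter window holds each of 3 motifs, for the replication members, other replication and G1/S genes, genes of G2/M and mitosis, and all genes tested. The E2F site is in 41.2% of the replication members and 3.95% of all genes.

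Compared between knockdown and empty vector, the replication genes had small changes, most of them below 0. None of the 42 passed an adjusted p of 0.05 over all genes in limma, with adjusted p between 0.972 and 0.999, and 0.00603% of all genes passed. At an unadjusted p under 0.05 in limma 3 members were lower (7.14%, against 2.65% of all genes) and 0 were higher (against 1.6%). The 3 were Rfc2, Gins1 and Tyms, and the unadjusted limma p of the other 39 ran from 0.0533 for Rrm2 to 0.990 for Ccne1. The changes ran from -0.20 to 0.069, with 32 of 42 below 0 and a median of -0.037, against a median of -0.00066 over all genes and -0.011 over the 7320 genes of the brighter class. Of the brighter genes 59.3% were below 0 and 3.52% were lower at an unadjusted p under 0.05. With quantile normalization 28 of 42 members were below 0, against 50.8% of the brighter genes. In bulk samples such as these, fewer cells in S phase and less of these RNAs per cell cannot be told apart.

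**Figure D2:**
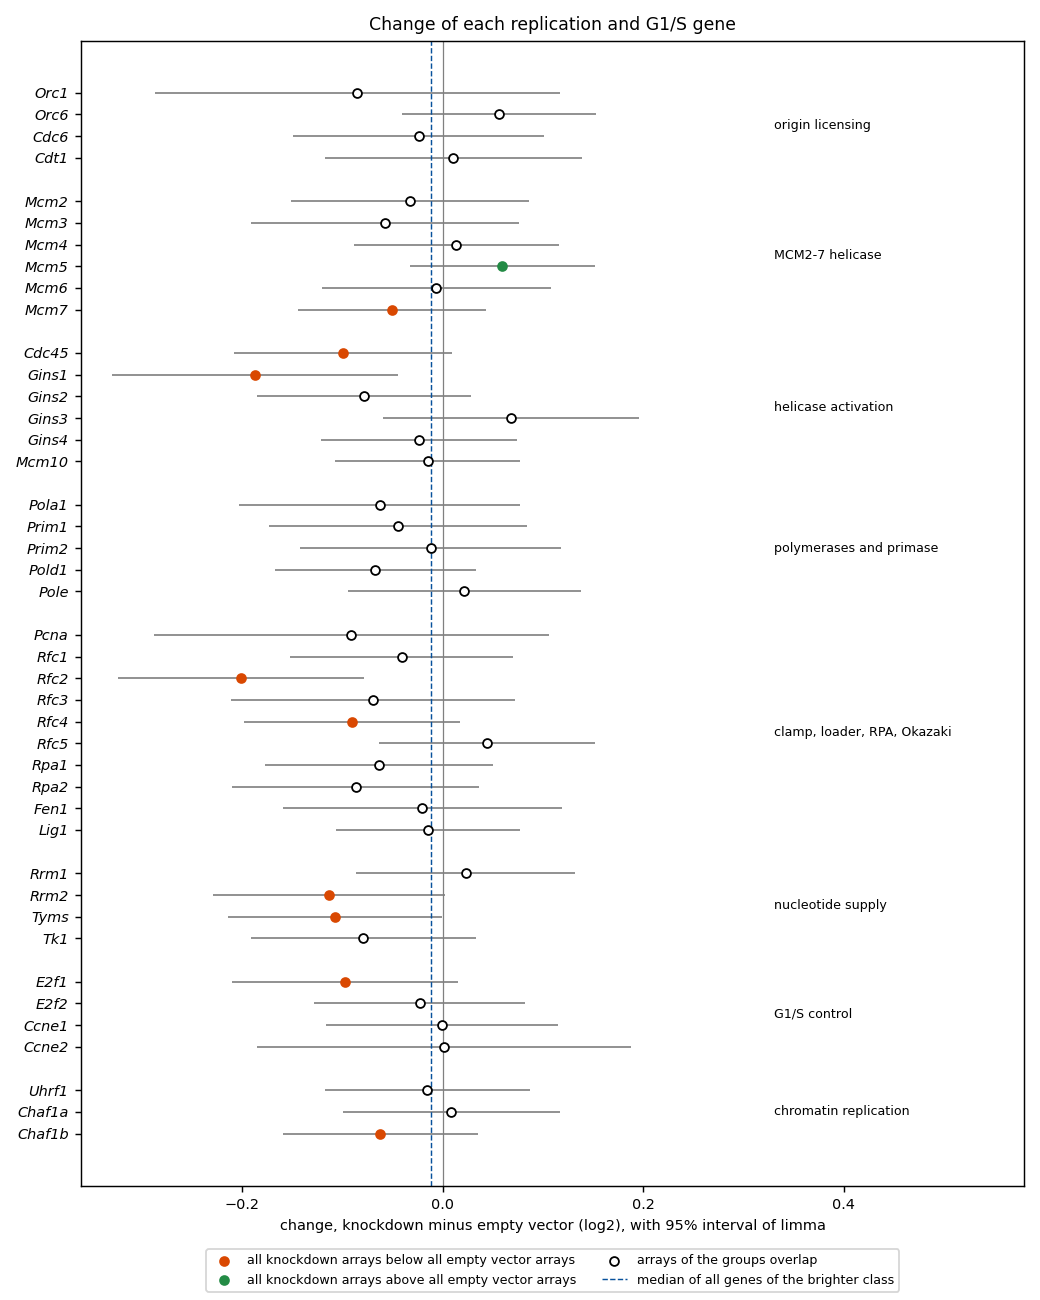
Change of each of the 42 genes (knockdown minus empty vector, log2, horizontal axis) with its 95% interval from limma, grouped by role. Filled points mark genes whose 2 groups of arrays do not overlap (orange lower, green higher with knockdown) and the dashed line the median of the brighter class, and the intervals of Rfc2, Gins1 and Tyms lie below 0.

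The 3 knockdown arrays did not contribute alike. Measured from the average of the 3 empty vector arrays, the members' median was -0.0088 on knockdown array 1, -0.064 on array 2 and -0.027 on array 3. The brighter genes had medians of -0.00032, -0.037 and 0.0046 on the same arrays. On each of the 3 knockdown arrays the median of the members was below that of the brighter genes. Both medians were lowest on array 2. On that array 32 of 42 members were below the empty vector mean, on array 1 24 and on array 3 27, against 66.4%, 50.2% and 46.9% of the brighter genes. Knockdown array 2 was the lowest of the 6 arrays for 17 members (40.5%) and for 41.3% of the brighter genes. Knockdown array 3 was the lowest for 10 members (23.8%) and for 10.5% of the brighter genes. Without knockdown array 2 the median of the members was -0.017, with 28 of 42 below 0. The median was then 0.0024 for the brighter genes and -0.0087 for all genes. In that limma fit the members lower at an unadjusted p under 0.05 were Rfc2, Gins1 and Cdc45. They were 7.14% of the members, against 5.01% of all and 3.14% of brighter genes. The part of the wide spread of that array in the members' values was not tested beyond these comparisons.

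**Figure D3:**
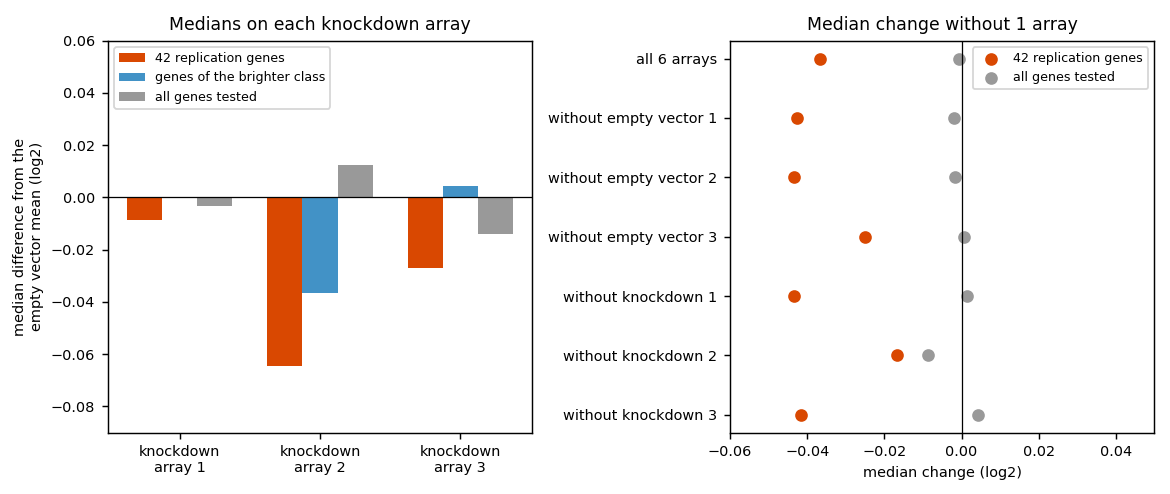
Left, median difference from the empty vector mean (log2) on each knockdown array for the 42 replication genes, the genes of the brighter class and all genes tested. Right, median change (log2) of the replication genes and of all genes with all 6 arrays and without each array, where the replication genes move from -0.037 to -0.017 without knockdown array 2.

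In 9 of the 42 members (21.4%) the highest knockdown array was lower than the lowest empty vector array, against 5.95% of all genes and 8.61% of the brighter genes. The 9 were Mcm7, Cdc45, Gins1, Rfc2, Rfc4, Rrm2, Tyms, E2f1 and Chaf1b. The gap between the groups was 0.092 for Rfc2, 0.037 for Gins1 and 0.023 for Rrm2, but only 0.00068 for Cdc45 and 0.00011 for E2f1. Only Mcm5 showed the opposite order (1 of 42, against 4.33% of all genes). When each array was centred within its brightness class, 6 members (14.3%) were separated downward, against 5.89% of all and 7.77% of brighter genes. With that centring 2 members (4.76%) were separated upward, where 4.33% of all genes were without it.

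**Figure D4:**
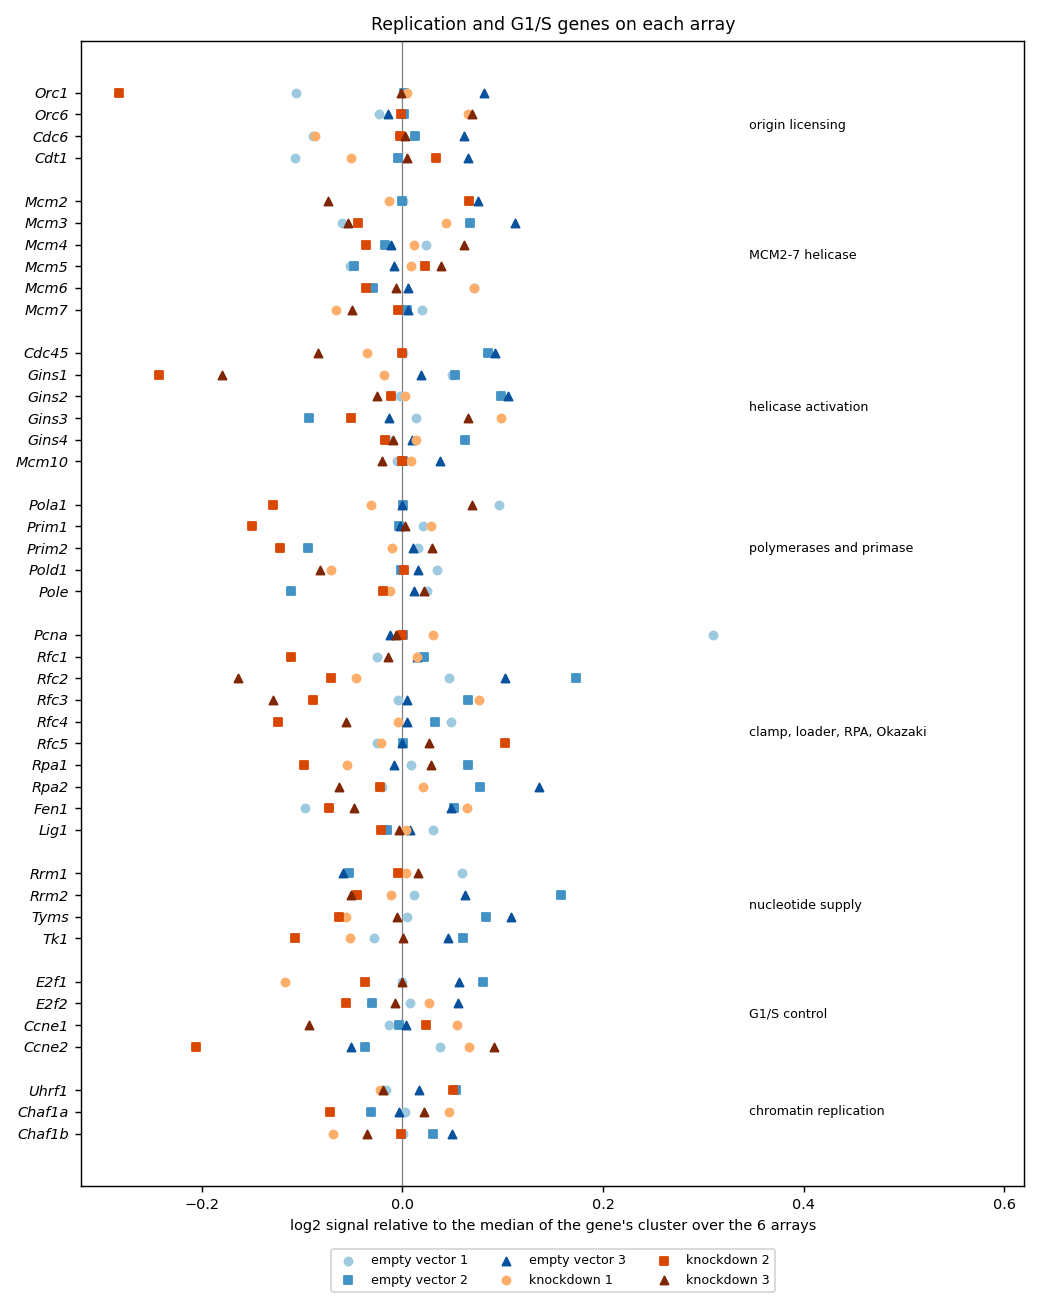
Log2 signal of each of the 42 genes on each of the 6 arrays (horizontal axis, relative to the median over the 6 arrays), grouped by role. Blue shades are empty vector arrays and orange shades knockdown arrays, with a shape for each replicate number, and Pcna on empty vector array 1 lies far to the right, at 0.31.

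Of the 4 licensing genes 2 were below 0 and 2 above. Orc6, a subunit of the origin recognition complex, was at -0.023, 0.0017 and -0.015 with empty vector and at 0.065, -0.0017 and 0.070 with knockdown. Its groups overlapped through knockdown array 2, and its change was 0.056 ± 0.042 (SE). Orc1, the largest subunit of that complex, was at -0.11, 0.0011 and 0.082 with empty vector and at 0.0050, -0.28 and -0.0011 with knockdown. A single array carried its change of -0.085 ± 0.087 (SE), which was 0.0097 without knockdown array 2. The MCM loaders Cdc6 and Cdt1 had changes of -0.024 and 0.011.

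The 6 subunits of the MCM2-7 ring stayed within a narrow range, from -0.058 for Mcm3 to 0.059 for Mcm5, and the 95% intervals of the whole group ran from -0.19 to 0.15. Mcm5 was at -0.052, -0.048 and -0.0088 with empty vector and at 0.0088, 0.022 and 0.038 with knockdown. Its knockdown arrays were all higher, by a change of 0.059 ± 0.040 (SE, limma adjusted p = 0.996). Mcm7 went the other way, from 0.020, 0.0045 and 0.0057 to -0.066, -0.0045 and -0.050, a change of -0.050 ± 0.040 (SE). Mcm3 overlapped between the groups, at -0.060, 0.068 and 0.11 with empty vector and 0.044, -0.044 and -0.054 with knockdown. Mcm2 (-0.033), Mcm4 (0.014) and Mcm6 (-0.0061) had smaller changes. Of the 6 subunits of the ring, 4 were below 0 and 2 above.

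Of the 6 factors that turn the loaded ring into a working helicase, 5 had changes below 0, where 59.3% of the brighter genes lay, and only Gins1 reached an unadjusted p under 0.05 in limma. Gins1, a subunit of the GINS complex, was at 0.049, 0.052 and 0.018 with empty vector and at -0.018, -0.24 and -0.18 with knockdown. Knockdown arrays 2 and 3 lay far below the other 4, and array 1 just below them. The change was -0.19 ± 0.06 (SE) or 0.878-fold, with a limma p of 0.0168 unadjusted and 0.996 adjusted over all genes, and -0.14 without knockdown array 2. Cdc45, the helicase partner of GINS and the MCM ring, was at 0.00034, 0.085 and 0.092 with empty vector and at -0.035, -0.00034 and -0.084 with knockdown, a change of -0.099 ± 0.047 (SE). Gins2 had -0.0028, 0.099 and 0.11 against 0.0028, -0.011 and -0.026, a change of -0.078 ± 0.046 (SE), with empty vector array 1 among the knockdown arrays. Gins3, of the same 4-subunit complex as Gins1, was at 0.014, -0.093 and -0.014 with empty vector and 0.098, -0.051 and 0.065 with knockdown. Its change of 0.069 ± 0.055 (SE) was the highest of the 42, and without knockdown array 2 it was 0.11, with a limma p under 0.05 unadjusted. Gins4 (-0.024) and the helicase-binding factor Mcm10 (-0.015) were close to 0. Of the 4 GINS subunits 3 were thus below 0 and 1 above, and the differences between them were not tested.

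Of the polymerase genes 4 of 5 were below 0 and none was separated. Pold1, the catalytic subunit of polymerase delta, was at 0.034, -0.0016 and 0.016 with empty vector and at -0.072, 0.0016 and -0.082 with knockdown. Arrays 1 and 3 of the knockdown lay low and array 2 did not, with a change of -0.067 ± 0.043 (SE). Pola1, the catalytic subunit of the polymerase that starts each strand, had 0.096, 0.00039 and -0.00039 against -0.031, -0.13 and 0.069, a change of -0.062 ± 0.060 (SE). Prim1, the small primase subunit, was low on knockdown array 2 alone (-0.15), with its other 5 arrays between -0.0036 and 0.029. Its change was -0.044 ± 0.056 (SE), and 0.011 without that array. Prim2 was at -0.012. Pole, the catalytic subunit of polymerase epsilon, was at 0.024, -0.11 and 0.012 with empty vector and at -0.012, -0.020 and 0.022 with knockdown. Empty vector array 2 was far below the others. Pole had a change of 0.022 ± 0.050 (SE), which was -0.021 without empty vector array 2.

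Among the clamp, the clamp loader, the single-strand binding proteins and the enzymes that finish Okazaki fragments, 9 of 10 were below 0, with a median of -0.066. Rfc2, a small subunit of the clamp loader, was at 0.046, 0.17 and 0.10 with empty vector and at -0.046, -0.071 and -0.16 with knockdown. All knockdown arrays lay below 0 and all empty vector arrays above, with the widest gap of any member. The change was -0.20 ± 0.05 (SE) or 0.870-fold, with a limma p of 0.00554 unadjusted and 0.972 adjusted over all genes, which ranked it 92 of 16583. It lay between -0.23 and -0.17 when any 1 array was left out. Rfc4 was at 0.048, 0.032 and 0.0043 with empty vector and at -0.0043, -0.12 and -0.056 with knockdown, a change of -0.090 ± 0.046 (SE). The other clamp loader subunits had changes of -0.041 (Rfc1, the large subunit), -0.069 (Rfc3) and 0.044 ± 0.046 (SE, Rfc5). Rfc5 was at -0.025, 0.00064 and -0.00064 with empty vector and -0.021, 0.10 and 0.027 with knockdown.

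Pcna itself was at 0.31, 0.00062 and -0.013 with empty vector and at 0.031, -0.00062 and -0.0059 with knockdown. Empty vector array 1 was far above the other 5, in each of the 2 clusters of the gene (0.31 and 0.30). The change of -0.091 ± 0.085 (SE) therefore rested on that array and was 0.014 without it. Rpa2, a subunit of the protein that coats single-stranded DNA, was at -0.020, 0.078 and 0.14 with empty vector and at 0.020, -0.022 and -0.064 with knockdown, a change of -0.087 ± 0.053 (SE). Its partner Rpa1 was at -0.063. The flap nuclease Fen1 and the ligase Lig1, which finish Okazaki fragments, were at -0.020 and -0.015.

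Nucleotide supply had the lowest median of the 8 roles, -0.093 over 4 genes. Tyms, which makes thymidylate, was at 0.0050, 0.083 and 0.11 with empty vector and at -0.056, -0.064 and -0.0050 with knockdown. The groups were separated by 0.0099, and the change was -0.11 ± 0.05 (SE) or 0.929-fold, with a limma p of 0.0499 unadjusted and 0.996 adjusted. With quantile normalization that unadjusted p was 0.0502, and it also lay above 0.05 under both kinds of centring and without most single arrays. Rrm2, the subunit of ribonucleotide reductase that limits its activity in S phase, was at 0.011, 0.16 and 0.063 with empty vector and at -0.011, -0.045 and -0.051 with knockdown. Its change of -0.11 ± 0.05 (SE) was -0.073 without empty vector array 2. Rrm1, the large subunit of the same enzyme, was at 0.059, -0.053 and -0.060 against 0.0040, -0.0040 and 0.015, a change of 0.023 ± 0.047 (SE). The difference between the 2 subunits was not tested. Tk1, which salvages thymidine, had a change of -0.079, and its 2 clusters differed, at -0.024 and -0.13. Whether a cluster of Pcna or Tk1 reads a near-identical copy elsewhere in the genome was not tested.

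Among the G1/S regulators, E2f1, a transcription factor that activates these genes and its own promoter, was at 0.000056, 0.080 and 0.056 with empty vector and at -0.12, -0.037 and -0.000056 with knockdown. Its groups touched, and the change was -0.097 ± 0.049 (SE). E2f2 was at 0.0072, -0.031 and 0.055 against 0.027, -0.056 and -0.0072, a change of -0.023 ± 0.045 (SE). The cyclins E had changes near 0. Ccne1 was at -0.00065 ± 0.050 (SE) and Ccne2 at 0.0012 ± 0.081 (SE). Ccne2 lay at 0.037, -0.037 and -0.051 with empty vector, and with knockdown knockdown array 2 (-0.21) lay far from arrays 1 and 3 (0.066 and 0.092). Without that array Ccne2 was at 0.096. The 95% intervals of the 4 genes together ran from -0.21 to 0.19.

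Of the chromatin genes, Chaf1b, a subunit of the assembly factor that deposits histones behind the fork, was at 0.0010, 0.030 and 0.049 with empty vector and at -0.069, -0.0010 and -0.035 with knockdown. Its change was -0.062 ± 0.042 (SE), while its partner Chaf1a had 0.0030, -0.031 and -0.0030 against 0.046, -0.072 and 0.022, a change of 0.0087 ± 0.047 (SE). Uhrf1, which guides the maintenance of DNA methylation, was at -0.016, 0.053 and 0.016 against -0.023, 0.050 and -0.019, a change of -0.015 ± 0.044 (SE).

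The 6 members with the E-box had a median change of -0.030, with 5 below 0, and the 28 without it -0.047, with 22 below 0. Over all genes tested the medians were -0.0033 with the E-box and -0.0012 without it. The 14 members with an E2F site had a median of -0.023 and the 20 without one -0.053, while over all genes the order was the other way, with -0.012 and -0.00085. The 22 members with a CCAAT box and the 12 without one had the same median of -0.043. Of the 3 members lower at an unadjusted p under 0.05 in limma, Tyms holds the E-box and no match to the E2F site searched. Rfc2 and Gins1 had no window. These medians are descriptions of small groups and were not tested.

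Other genes of the same pathway were examined from a list of 82, of which 79 were measured. None passed an adjusted p of 0.05 in limma over all genes, and 0 were at an unadjusted p under 0.05 in either direction, against 2.65% of all genes lower and 1.6% higher. Their median change was -0.0015, with 41 of 79 below 0, 2 separated downward and 5 upward, where 5.95% and 4.33% of all genes were. By role the medians were 0.0080 for licensing and origin firing (15 genes), -0.035 for polymerases, clamp and fork proteins (19), -0.0043 for nucleotide supply (11), 0.0064 for G1/S control (26) and -0.022 for chromatin replication (8). The polymerase and fork genes had the lowest of these medians, with 13 of 19 below 0. Genes of G2/M and mitosis, 34 of 35 measured and all in the brighter class, had a median of -0.039 with 27 below 0, close to the members. Without knockdown array 2 that median was -0.015, with 21 of 34 below 0. At an unadjusted p under 0.05 in limma 1 of them was lower, Birc5, a passenger protein of dividing chromosomes, with a change of -0.12. Of these 34 genes 4 were separated downward and 0 upward, against 9 and 1 of the 42 members. Among the brighter genes 8.61% were separated downward and 5.46% upward. The difference between these lists was not tested. The 14 neuronal and neuroblastoma markers measured had a median of -0.021, with 7 below 0 and 7 above. Of the 14, 4 were separated downward and 2 upward, Nefm (0.10) and Chga (0.052). At an unadjusted p under 0.05 in limma 3 of the 14 were lower, Dbh (-0.25), Chgb (-0.15) and Elavl4 (-0.13), against 2.65% of all genes. At that p 0 were higher, and none of the 14 passed an adjusted p of 0.05. Markers of other cell types had medians of 0.049 for fibroblasts, 0.079 for glia, 0.057 for macrophages and 0.055 for endothelium, against 0.011 for all genes outside the brighter class, and none of these 20 markers reached an unadjusted p under 0.05 in limma. Taken on knockdown array 2 alone, relative to the control average, the same 4 lists had medians of 0.26, 0.15, 0.074 and 0.092, on knockdown array 1 of 0.027, 0.028, 0.074 and 0.077, and on knockdown array 3 of -0.12, 0.021, 0.022 and -0.032. Their part in the members' values was not tested.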

How the data were processed

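Gene expression was measured in 6 Neuro2a samples (3 empty vector, 3 knockdown, by title). The authors deposited 1 table of 22891 transcript clusters as log2 values relative to each cluster's median over the 6 arrays. Per the labels' protocols, cDNA was prepared with the Ambion WT Expression Kit and labelled with Affymetrix's WT Terminal Labeling Kit. For background correction, normalization and the log base, the methods were not given in the sources used here. The base was taken from the rounding steps of the values (tolerance 0.05 of a step), which also gave the brightness classes. A class is not a level.

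Clusters with 1 symbol in the platform annotation (18087) were averaged per gene. Changes were fitted over all 16583 genes by limma 3.58.1 (lmFit, then eBayes) running under R 4.3.3 (4 residual and 3.79 prior degrees of freedom, adjusted by Benjamini-Hochberg), and the fit was tested on simulated data. Motifs and figures used Python 3.11.15, pandas 2.3.3 and matplotlib 3.10.9. Members and lists were chosen with earlier results of these data known. In each role the members with the smallest p (2, or 3 in roles of 5 or more genes) and the most positive change have array values, with Pcna as an addition chosen after its values were seen. Alternatives were other normalizations, brighter clusters alone, single clusters, robust variance, array weights, a replicate block and each array left out.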

Additional observations from a re-analysis of the deposited data

How the results depend on the processing

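None of the 42 members passed an adjusted p of 0.05 in limma in 13 of the 14 alternatives. The exception was the fit with array quality weights. There 5 of the 42 members passed (Chaf1b, E2f1, Rfc2 and Tyms lower, Gins3 higher), against 1111 of all 16583 genes. Of the other pathway genes 1 passed (E2f7). At an unadjusted p under 0.05 in that fit 12 members were lower (28.6%, against 15.3% of all and 13.0% of brighter genes). At that p 3 of the 42 members were higher, where 4356 of the 16583 genes were lower or higher. Those 3 were a smaller share than that of all genes higher. The estimate of these weights stopped before it converged and gave knockdown arrays 1, 2 and 3 weights of 33, 0.136 and 0.441, so the knockdown mean was in effect that of 1 array. The count of members lower at an unadjusted p under 0.05 in limma (3) was 5 among brighter clusters alone (12.2%, against 5.20% of the genes then tested). It was 2 with quantile normalization, either centring, robust variance or the replicate block, where Tyms was no longer among them. Those 2 were 4.76% of the members, against 2.36% to 3.00% of all and 2.88% to 3.73% of brighter genes. With each cluster tested alone Tk1 took the place of Tyms. Without 1 array at a time the count lower ran from 1 to 7. It was 1 without empty vector array 2 (2.38%, against 1.60% of all and 2.02% of brighter genes). It was 7 without empty vector array 1 (16.7%, against 3.14% of all and 4.36% of brighter genes). The count higher ran from 0 to 1. Members separated downward ran from 9 to 14 (21.4% to 33.3%, against 8.45% to 14.2% of all and 11.4% to 19.4% of brighter genes). The median ran from -0.044 to -0.017 (without knockdown array 2). The sign held in all 6 such fits for 27 of 42 members, 22 of them lower. It turned for the other 15, which were Cdc6, Cdt1, Mcm2, Mcm4, Mcm6, Prim2, Fen1 and Ccne1, given by their change alone, and Pcna (-0.15 to 0.014), Orc1 (-0.13 to 0.0097), Prim1 (-0.079 to 0.011), Pole (-0.021 to 0.046), Ccne2 (-0.053 to 0.096), Uhrf1 (-0.039 to 0.0027) and Chaf1a (-0.015 to 0.044). Among the genes given with array values, it turned with array weights for Prim1 (0.026), Rfc5 (-0.014) and E2f2 (0.011). The cause was not tested. Samples with the same number did not deviate together (correlations of -0.023, 0.045 and 0.035), and with the replicate number as a block 0 members passed, 2 were lower at an unadjusted p under 0.05 and the median was -0.037.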
